A study of Homo sapiens with 6 samples.

Results

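Annexins are cytosolic proteins that bind phospholipid membranes when calcium rises, and the transcripts of this family were followed here in SW480, a human colorectal adenocarcinoma cell line, with and without knockdown of the transcriptional repressor ZEB1. The members were 10 genes chosen by gene name, ANXA1, ANXA2, ANXA3, ANXA4, ANXA5, ANXA6, ANXA7, ANXA9, ANXA10 and ANXA11. Of these, 9 had a row among the 32029 genes listed for each culture, while ANXA10 had no row and was not analysed here. After ZEB1 knockdown, ANXA7 rose 1.89-fold and ANXA1, ANXA3, ANXA4 and ANXA6 rose between 1.22-fold and 1.37-fold. The abundant members ANXA2 and ANXA5, together with ANXA11, stood at between 0.910 and 0.925 of their control level and did not pass the test, and ANXA9 showed no detectable difference at its low read count.

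The comparison asks which transcripts depend on ZEB1 in colorectal cancer cells, and ANXA7 was among the putative tumor suppressors whose promoter the study went on to examine. By ChIP the study reported enrichment of ZEB1 and HDAC1 at the ANXA7 promoter in SW480. It also reported higher ANXA7 mRNA and protein after knockdown of either factor. In public clinical datasets, the study reported a trend of ANXA7 with ZEB1 opposite to the negative correlation of CLDN7, another putative tumor suppressor. RNA was taken 48 h after transfection. Of the cultures, 3 were given control siRNA (siNC, genotype label WT) and 3 were given siRNA against ZEB1 (siZEB1, genotype label ZEB1 knockdown). All 6 were SW480, so each value describes a single cell line after a transient and incomplete knockdown. The siRNAs were purchased, and their sequences are not given in the sources used here. The study's methods call the cultures of a group biological replicates. The p-values below weigh the difference between the groups against the spread between these cultures.

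Each annexin consists of a conserved core, which holds the calcium sites and docks on acidic phospholipids, and an amino-terminal tail that differs between members and binds partner proteins. Through the core the proteins bridge or scaffold membranes in exocytosis, endosome traffic and the sealing of plasma membrane wounds, and through the tail they recruit S100 proteins and other small calcium-binding proteins. In intestinal epithelium several members lie under the apical or basolateral membrane, and ANXA1 and ANXA2 are often studied in colorectal tumors. The principal coding sequences (GENCODE 29) were between 320 and 346 codons long for ANXA1, ANXA2, ANXA3, ANXA4, ANXA5 and ANXA9. ANXA7, with 466 codons, and ANXA11, with 505 codons, have the longest tails of the family, and ANXA6, with 673 codons, joins a pair of cores in a single chain.

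ZEB1 represses genes by binding E-boxes, short elements that read CACCTG on one strand and CAGGTG on the other. RefSeq promoter windows of 300 bases (250 before and 50 after each annotated start, GRCh38.p14) were available for all 10 members, with 14 windows in total. Either spelling of the E-box was present in 5 of the 14 windows, beside 20.6% of the 35116 windows of all genes. By gene, 5 of the 9 tested members held a match, beside 24.3% of the 10429 tested genes with a window. These were ANXA3, ANXA4, ANXA6, ANXA7 and ANXA11, the first 4 of which rose after the knockdown. In ANXA4, ANXA6 and ANXA11 the match lay only in the window of the second annotated start. Which starts SW480 uses was not tested. No match lay in the windows of ANXA1, ANXA2, ANXA5 and ANXA9. A match is a run of letters in a reference sequence and does not show that ZEB1 binds there, and its absence shows only that these letters are not in the window.

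ANXA7 and ANXA3, the members with the highest fold changes, were also those with 2 matches in a single window, which was the case for 3.49% of all windows. The sequence that follows is the ANXA7 promoter upstream of every annotated exon of the gene, at chr10:73414077-73414308 on the minus strand, written 5′ to 3′ in the direction of transcription. Capitals mark the E-box at position -141 from the RefSeq start.
ANXA7 promoter: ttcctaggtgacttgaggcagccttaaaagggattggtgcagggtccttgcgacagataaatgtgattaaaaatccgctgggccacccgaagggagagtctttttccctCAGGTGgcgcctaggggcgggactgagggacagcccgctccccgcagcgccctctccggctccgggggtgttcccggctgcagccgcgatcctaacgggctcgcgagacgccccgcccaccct

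The other E-box of the ANXA7 window began at position 45 after the start, and those of ANXA3 began at positions -68 and 10. Each is shown in a run of 30 bases, at chr10:73414009-73414038 on the minus strand for ANXA7 and at chr4:78551690-78551719 and chr4:78551767-78551796 on the plus strand for ANXA3. Capitals again mark the E-box, and the runs are shown so that the bases around it can be compared with those of members that rose less or did not pass the test. The ANXA7 run ends with its E-box, where the window stops, and so has no bases after it.
ANXA7 after the start: gggctgtgacgctgctgctggggtCAGGTG
ANXA3 before the start: tggggccgcaatCAGGTGgagtcgagaggc
ANXA3 after the start: gccagcgcggagCACCTGcgcccgcggctg
The remaining members with a match had it in the window of 1 of several annotated starts. It began at position -135 from the second start of ANXA4 (chr2:69741987-69742016, plus strand), -71 from the second start of ANXA6 (chr5:151141738-151141767, minus strand) and -22 from the second start of ANXA11 (chr10:80205542-80205571, minus strand).
ANXA4: ggcccggggcccCAGGTGcgcttcccctag
ANXA6: gcaggggattccCAGGTGgcaggaagagag
ANXA11: cactgcctctggCACCTGgggcagccgcgc

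The windows also differed in base composition. The ANXA1 window had a GC content of 37.7% and no CpG, whereas those of ANXA2, ANXA5 and ANXA7 had 76.0%, 76.3% and 66.0% GC with 32, 36 and 23 CpG dinucleotides. The median GC content of all windows was 58.7%. The study's qChIP primers for ANXA7, tccaactaagatttcccaca and gagaagggctgagactgg, have no exact match in the 300-base window on either strand, so the window and the region amplified in that assay cannot be equated. Its qRT-PCR primers for ANXA7, aggccaaggatttggagtcc and tgactagggtaagtaggttgtcc, matched 4 of the 5 ANXA7 transcripts in GENCODE 29.

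**Figure D1:**
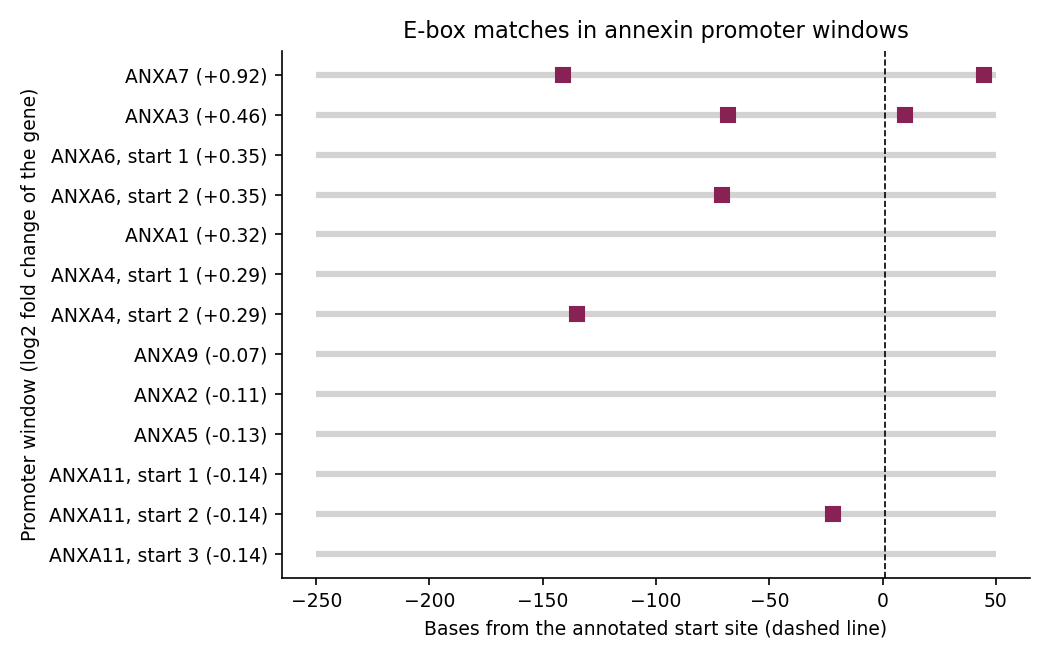
Position of each CACCTG or CAGGTG match (squares) in the promoter windows of the 9 annexins with a row, in bases from the annotated start (x axis), with each gene's log2 fold change in parentheses and windows ordered by it. The ANXA7 and ANXA3 windows at the top hold 2 matches each, and single matches lie in 1 window each of ANXA6, ANXA4 and ANXA11.

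The reads assigned to genes summed to between 19040636 and 22357633 per culture. Levels are given as CPM, the reads of a gene relative to the TMM-adjusted size of its library, and each ± is the SD of 3 cultures. Fold changes (log2FC) are log2 of siZEB1 over siNC from edgeR's quasi-likelihood test, with the standard error (SE), and p-values were adjusted by Benjamini-Hochberg over the 14996 genes tested. A gene was called when its adjusted p was under 0.05. ZEB1 itself fell from 54.2 ± 6.24 to 7.51 ± 0.843 CPM (SD, n = 3), with a log2FC of -2.85 (SE 0.11, adjusted p = 4.85e-12). Of 8 colorectal epithelial markers, KRT8 and KRT18 were abundant in both groups (3455 and 1418 CPM in siNC). EPCAM, VIL1 and KRT19 rose, CDX2 fell, CDH17 had 0 to 5 reads per culture and KRT20 stayed under 1 CPM on average. The summed level of these markers ran from 4814 to 5437 CPM in siNC and from 5329 to 6002 CPM in siZEB1. An opposite-strand gene, USP37, overlaps 44% of the exonic bases of VIL1, and the strand setting of the counting is not given in the sources used here. Of 9 markers of leukocytes, endothelium and fibroblasts, PTPRC, CDH5 and DCN had no row and 4 were under 1 CPM in every culture. Only 2, PECAM1 and COL1A1, were tested, and neither was called. The summed level of all 9 ran from 11.1 to 12.7 CPM in siNC and from 9.20 to 11.4 CPM in siZEB1. COL1A1 alone averaged 10.2 CPM in siNC and 8.70 CPM in siZEB1.

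All 9 members with a row passed the filter on low counts. The test called 5 of the 9 higher after ZEB1 knockdown, where 19.0% of all tested genes were called higher. It called 0 lower, where 21.2% of all tested genes were. At an unadjusted p under 0.05, 3 members were lower (25.0% of all tested genes), and DESeq2 also called 5 higher and 0 lower, beside 17.8% and 19.0% of all tested genes. The median log2FC of the members was 0.29 and that of all tested genes was -0.005. The highest and lowest values of siNC and siZEB1 cultures did not overlap for 8 of the 9 members, which held for 49.5% of all tested genes. In these bulk samples, less RNA per cell and fewer cells expressing a gene cannot be told apart.

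**Figure D2:**
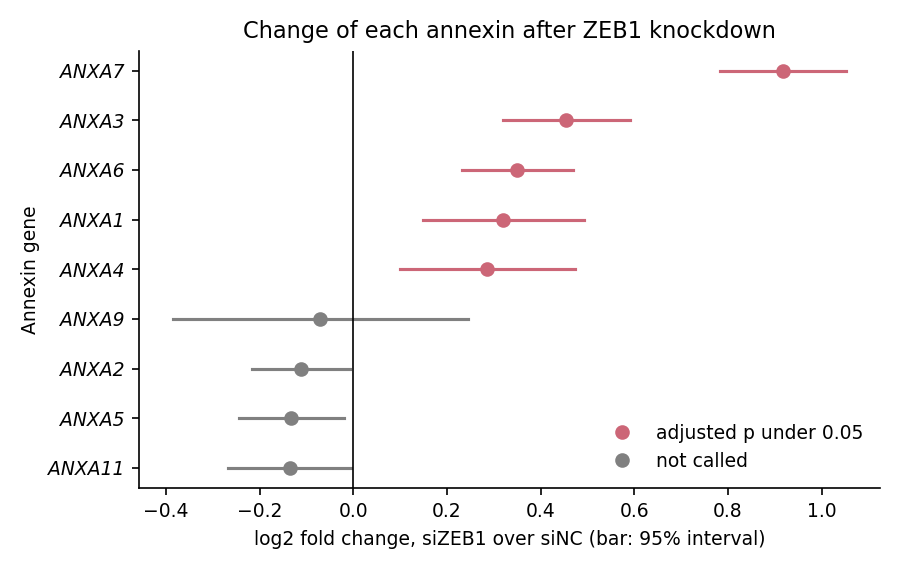
Log2 fold change of each annexin, siZEB1 over siNC (x axis), with its 95% interval as a bar and the 9 genes in descending order. The 5 genes past an adjusted p of 0.05 (red) run from 0.29 for ANXA4 to 0.92 for ANXA7, and the 4 others (gray) lie between -0.14 and -0.07.

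ANXA7, or synexin, aggregates secretory granules in the presence of calcium and binds the small calcium sensors sorcin and PDCD6 through its long tail. It lies on chromosome 10 from 73375101 to 73414076 (minus strand). ANXA7 had 1242, 1223 and 1104 reads with siNC and 2035, 2078 and 2024 with siZEB1. The groups lay far apart, since the lowest siZEB1 culture was at 106 CPM and the highest siNC culture at 58.4 CPM. The level rose from 56.8 ± 1.95 to 107 ± 1.27 CPM (SD, n = 3). The log2FC was 0.92 (SE 0.064, 95% interval 0.78 to 1.05, adjusted p = 7.63e-09), and 3.32% of all tested genes had a higher value. ANXA7 was the only member past the fold limit of 1.5 that the study used, which 7.21% of all tested genes passed upward at an unadjusted p under 0.05 and 4.52% at one under 0.001. An opposite-strand gene overlaps 3.67% of the exonic bases of ANXA7, and whether the counting used the strand is not given in the sources used here.

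ANXA11 is the member closest to ANXA7 in build, with a long tail of its own that binds S100A6 and PDCD6, and it tethers RNA granules to lysosomes. It lies on the same chromosome, from 80150889 to 80205572 (minus strand). ANXA11 had 3413, 3684 and 3365 reads with siNC and 2976, 2961 and 2740 with siZEB1. Its siZEB1 cultures all lay below its siNC cultures, but narrowly, with 158 CPM in the highest of the former and 161 CPM in the lowest of the latter. Mean levels were 167 ± 7.24 and 152 ± 7.53 CPM (SD, n = 3), and the log2FC of -0.14 (SE 0.062, adjusted p = 0.0946) did not pass the test. The 95% interval for ANXA11, -0.27 to -0.004, did not reach the interval for ANXA7. Within a culture, ANXA7 had 36.4, 33.2 and 32.8 reads per 100 ANXA11 reads with siNC and 68.4, 70.2 and 73.9 with siZEB1, so the balance between these long-tailed members shifted toward ANXA7 in every siZEB1 culture.

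ANXA3, a member known from neutrophil granules and often studied in epithelial tumors, lies on chromosome 4 from 78551519 to 78610451 (plus strand). ANXA3 had 1410, 1538 and 1355 reads with siNC and 1817, 1823 and 1730 with siZEB1. The groups were well separated, from 66.3 to 70.3 CPM in siNC and from 90.4 to 96.2 CPM in siZEB1. ANXA3 rose from 68.4 ± 2.002 to 93.8 ± 3.05 CPM (SD, n = 3), or 1.37-fold, with a log2FC of 0.46 (SE 0.064, adjusted p = 2.55e-05).

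ANXA4, which associates with the membranes of secretory and absorptive epithelia, lies on chromosome 2 from 69644425 to 69827100 (plus strand). ANXA4 had 477, 498 and 389 reads with siNC and 452, 544 and 515 with siZEB1. Scaled for library size, the groups came close to each other without overlapping, with 22.4 CPM in the highest siNC culture and 23.9 CPM in the lowest siZEB1 culture. ANXA4 rose from 21.6 ± 1.25 to 26.4 ± 2.22 CPM (SD, n = 3), a log2FC of 0.29 (SE 0.088, adjusted p = 0.0154). Without siZEB1 replicate 2 the ANXA4 call was lost, at a log2FC of 0.23 (adjusted p = 0.0872 from edgeR).

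ANXA6, the member with a pair of cores, is known to bring the Ras inhibitor RASA1 and protein kinase C alpha to membranes, and lies on chromosome 5 from 151100712 to 151157882 (minus strand). ANXA6 had 4493, 4779 and 4384 reads with siNC and 5210, 5447 and 5204 with siZEB1. Every siZEB1 culture, at 272 CPM or above, exceeded every siNC culture, at 227 CPM or below. ANXA6 rose from 217 ± 8.76 to 277 ± 5.76 CPM (SD, n = 3), a log2FC of 0.35 (SE 0.056, adjusted p = 9.22e-05).

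ANXA5 binds phosphatidylserine, for which it serves as the usual probe of dying cells, and lies on chromosome 4 from 121667955 to 121697113 (minus strand). ANXA5 had 5625, 5956 and 5079 reads with siNC and 4514, 4739 and 4577 with siZEB1. The siNC cultures were tightly grouped between 263 and 266 CPM, and the siZEB1 cultures lay below them between 239 and 246 CPM. Mean levels were 265 ± 1.25 and 242 ± 4.23 CPM (SD, n = 3), and the log2FC of -0.13 (SE 0.053, 95% interval -0.24 to -0.02) had an adjusted p of 0.059, outside the threshold. Scaling by total library size alone brought ANXA5 to -0.14 with an adjusted p of 0.0403 from edgeR. ANXA6 had 79.9, 80.2 and 86.3 reads per 100 ANXA5 reads with siNC and 115, 115 and 114 with siZEB1, so that ANXA6 passed from fewer reads than ANXA5 to more in each siZEB1 culture. These reads are not adjusted for length. Per kilobase of exon ANXA5 stayed above ANXA6 in both groups, with means of 79.6 and 51.05 CPM in siZEB1.

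ANXA2 forms a complex with S100A10 under the plasma membrane, where it organizes cortical actin and receives plasminogen and its activator PLAT at the cell surface. It lies on chromosome 15 from 60347134 to 60402883 (minus strand). ANXA2 had 34246, 37121 and 33101 reads with siNC and 29836, 30199 and 27977 with siZEB1. The siZEB1 cultures lay below the siNC cultures, with 1580.4 CPM in the highest of the former and 1610.5 CPM in the lowest of the latter. Mean levels were 1662 ± 53.4 and 1538 ± 65.8 CPM (SD, n = 3), and the log2FC of -0.11 (SE 0.050, 95% interval -0.22 to -0.007, adjusted p = 0.0834) did not pass the test. With scaling by total library size alone, the value for ANXA2 was -0.12 and its adjusted p from edgeR was 0.0469.

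ANXA1 was first known as a glucocorticoid-induced inhibitor of phospholipase A2, is secreted as a ligand of formyl peptide receptors and binds S100A11 through its tail. It lies on chromosome 9 from 73151757 to 73170393 (plus strand). ANXA1 had 523, 496 and 440 reads with siNC and 521, 574 and 563 with siZEB1. After scaling, the siNC cultures lay between 22.1 and 24.6 CPM and the siZEB1 cultures between 27.6 and 29.9 CPM, without overlap. ANXA1 rose from 23.2 ± 1.26 to 28.96 ± 1.20 CPM (SD, n = 3), a log2FC of 0.32 (SE 0.081, adjusted p = 0.00437).

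ANXA9 is an atypical annexin whose core has lost its calcium sites. It lies on chromosome 1 from 150982017 to 150995634 (plus strand). ANXA9 had 108, 149 and 136 reads with siNC and 123, 102 and 116 with siZEB1. It was the only member whose groups overlapped, with siNC replicate 1 below all siZEB1 cultures and siNC replicates 2 and 3 above them. Mean levels were 6.26 ± 1.04 and 5.96 ± 0.612 CPM (SD, n = 3), and the log2FC was -0.07 (SE 0.15, adjusted p = 0.743). The 95% interval for ANXA9, from -0.39 to 0.25, includes 0 and the value of ANXA5 and stops short of that of ANXA4.

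Levels of different genes can be compared only per length of transcript. Per kilobase of exon, ANXA2 was the most abundant member by a wide margin, with 188 ± 6.05 CPM per kb in siNC and 174 ± 7.46 CPM per kb in siZEB1 (SD, n = 3). ANXA5 followed with 87.2 ± 0.413 and 79.6 ± 1.40 CPM per kb, and ANXA6 with 40.1 ± 1.61 and 51.1 ± 1.06 CPM per kb. In siNC cultures ANXA7, at 19.8 ± 0.681 CPM per kb, could not be ranked against ANXA11, at 19.6 ± 0.850 CPM per kb, since their ranges overlapped. In siZEB1 cultures ANXA7 stood clear of ANXA11, at 37.5 ± 0.442 against 17.8 ± 0.884 CPM per kb.

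At the lower end, ANXA3 had 13.4 ± 0.391 CPM per kb in siNC and 18.3 ± 0.596 CPM per kb in siZEB1 (SD, n = 3), where its range overlapped that of ANXA11. ANXA1 had 5.08 ± 0.277 and 6.35 ± 0.262 CPM per kb, ANXA9 had 3.43 ± 0.572 and 3.26 ± 0.335 CPM per kb, and ANXA4 had 1.96 ± 0.113 and 2.39 ± 0.201 CPM per kb. Apart from ANXA7 beside ANXA11 in siNC and ANXA11 beside ANXA3 in siZEB1, neighbors in the order did not overlap within a group. The order also depends on the length used. By the mean over all 6 cultures, dividing by the longest transcript instead exchanged ANXA11 with ANXA3 and ANXA9 with ANXA4, and 5 of the 9 genes kept their place. On that length the siNC means of ANXA11, ANXA3 and ANXA7 were 23.9, 23.3 and 23.2 CPM per kb, so these members cannot be ranked firmly in control cultures.

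**Figure D3:**
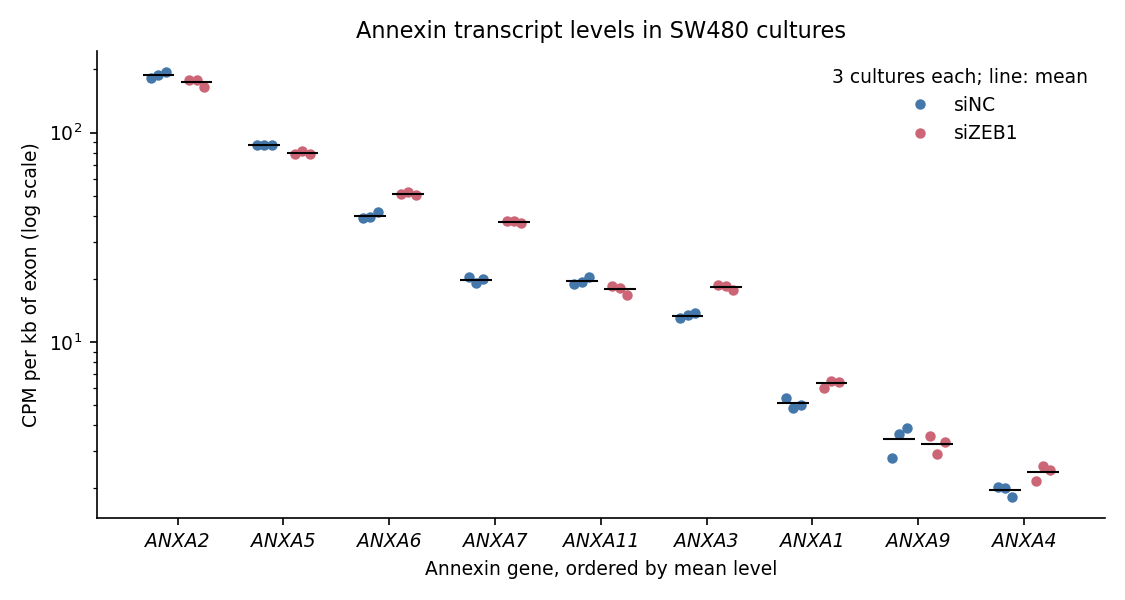
CPM per kb of exon (y axis, log scale) in each of the 3 siNC (blue) and 3 siZEB1 (red) cultures for the 9 annexins, ordered by mean level, with a line at the mean of each group. ANXA2 lies near 188 CPM per kb in siNC and ANXA4 near 1.96, and ANXA7 is the gene whose groups stand farthest apart.

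The total output of the family did not separate the groups. The summed level of the members was 2424, 2476 and 2560.2 CPM in the siNC cultures and 2515, 2521 and 2375 CPM in the siZEB1 cultures, with the ranges overlapping. Its makeup did separate them, because ANXA2 took 66.4%, 67.0% and 67.1% of the members' reads with siNC and 62.8%, 62.3% and 61.6% with siZEB1. Without ANXA2 the summed level was 813, 818 and 843 CPM in siNC and 935, 950.05 and 913 CPM in siZEB1. Among the members other than ANXA2, ANXA3 had 25.1, 25.8 and 26.7 reads per 100 ANXA5 reads with siNC and 40.3, 38.5 and 37.8 with siZEB1. These sums and ratios follow from the member values given above and were not tested on their own.

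**Figure D4:**
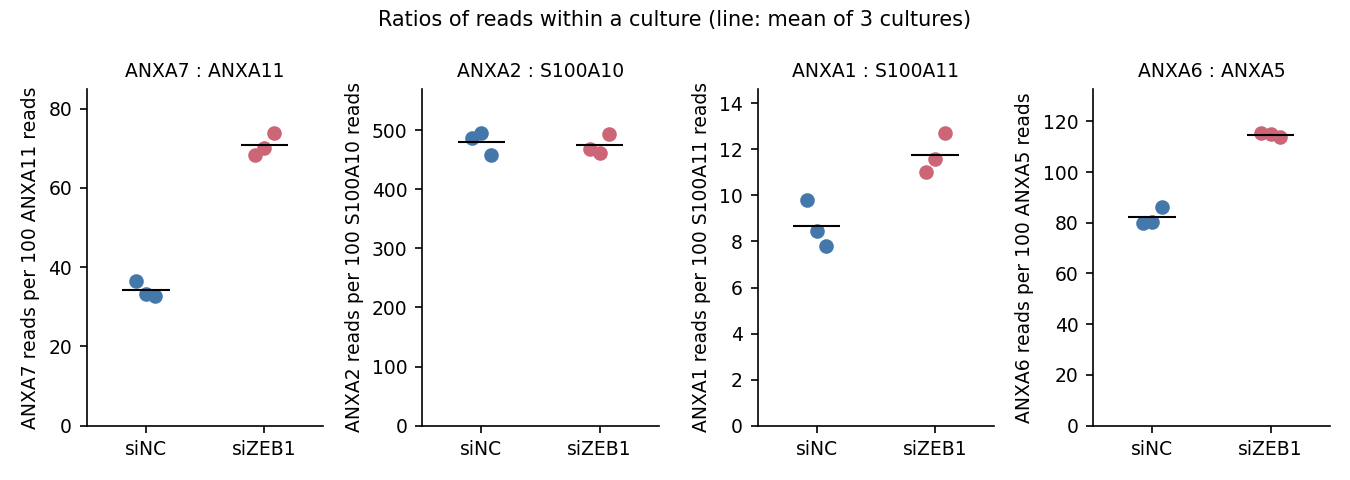
Reads of 1 gene per 100 reads of another within each culture (y axes, from 0), for ANXA7 over ANXA11, ANXA2 over S100A10, ANXA1 over S100A11 and ANXA6 over ANXA5, with 3 siNC (blue) and 3 siZEB1 (red) cultures and lines at the means. The ANXA7, ANXA1 and ANXA6 ratios are higher in every siZEB1 culture, and the ANXA2 ratios of both groups lie between 458 and 495.

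Other annexin loci outside the 10 members were counted as well. ANXA2P2, a processed pseudogene that matches the ANXA2 transcript at 98.4% of 1020 bases (16 mismatches), had 2030, 2315 and 1950 reads in siNC and 1893, 1857 and 1859 reads in siZEB1. This was between 5.89 and 6.64 reads per 100 ANXA2 reads in all 6 cultures, and reads of the gene and its copy may have been exchanged by the alignment. ANXA2P2 did not differ detectably, with 95.5 to 103 CPM in siNC, 96.6 to 100.3 CPM in siZEB1 and a log2FC of -0.03 (adjusted p = 0.743). With the reads of its processed copies added, ANXA2 had a log2FC of -0.11 (adjusted p = 0.0937 from edgeR).

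The rest were at or near the limit of detection. ANXA2R, a gene named for an ANXA2 receptor, had 17, 26 and 11 reads with siNC and 8, 16 and 15 with siZEB1 (adjusted p = 0.53). ANXA8 had 2, 1 and 8 reads with siNC and 2, 9 and 5 with siZEB1, and ANXA8L1, 99.4% identical to it over 2174 bases, had 1 read in a single siZEB1 culture. ANXA2P1, another processed pseudogene, had 1, 3 and 3 reads with siNC and 0 with siZEB1. ANXA13 and ANXA2P3 had no row.

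Proteins that bind or act with annexins were taken as a list of 17 genes. Of these, 12 passed the filter, and 0 were called higher (19.0% of all tested genes), 7 lower (21.2% of all tested genes) and 5 neither. At an unadjusted p under 0.05 again 0 were higher (23.1% of all tested genes), and DESeq2 also called 0 higher (17.8% of all tested genes). At the fold limit of 1.5, PLAT alone was lower, beside 9.35% of all tested genes at an unadjusted p under 0.05 and 6.70% at one under 0.001. Their median log2FC was -0.28, against -0.005 for all tested genes and 0.29 for the annexins themselves.

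S100A10 and S100A11 did not pass the test, whereas S100A6 and S100A4 fell. S100A10, the partner of ANXA2, had 7046, 7492 and 7228 reads with siNC and 6361, 6553 and 5661 with siZEB1, and its groups overlapped at 347 ± 24.3 and 325 ± 25.0 CPM (SD, n = 3). Its log2FC was -0.10 (SE 0.067, 95% interval -0.24 to 0.04, adjusted p = 0.268). There were 486, 495 and 458 ANXA2 reads per 100 S100A10 reads with siNC and 469, 461 and 494 with siZEB1. This ratio of transcript reads overlapped between the groups, and the proteins of the complex were not measured in these data. S100A11, the partner of ANXA1, had 5343, 5880 and 5630 reads with siNC and 4721, 4960 and 4428 with siZEB1, with overlapping levels and a log2FC of -0.12 (95% interval -0.26 to 0.01, adjusted p = 0.145). ANXA1 nevertheless had more reads per 100 S100A11 reads in each siZEB1 culture (11.04, 11.6 and 12.7) than in any siNC culture (9.79, 8.44 and 7.82).

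S100A6, which binds ANXA11 and ANXA2, had 2635, 3098 and 2800 reads with siNC and 2123, 2373 and 1876 with siZEB1. It fell from 136 ± 10.9 to 111 ± 12.7 CPM (SD, n = 3), a log2FC of -0.29 (SE 0.082, adjusted p = 0.0096), and the groups did not overlap. The partners of the ANXA7 tail did not follow ANXA7 upward. SRI, which encodes sorcin, had 468, 519 and 436 reads with siNC and 349, 357 and 354 with siZEB1, and fell from 22.6 ± 0.583 to 18.5 ± 0.0435 CPM (log2FC -0.29, SE 0.082, adjusted p = 0.00936). There were 265, 236 and 253 ANXA7 reads per 100 SRI reads with siNC and 583, 582 and 572 with siZEB1.

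PDCD6, the calcium sensor shared by ANXA7 and ANXA11, had 294, 368 and 313 reads with siNC and 217, 237 and 334 with siZEB1. The siZEB1 cultures were split, since after scaling replicate 3 lay above all siNC cultures and the other two below them. The log2FC of PDCD6 was -0.17 (SE 0.13, 95% interval -0.45 to 0.11, adjusted p = 0.331). Without siZEB1 replicate 3 it was -0.38 and passed the test (adjusted p = 0.0154 from edgeR).

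Among the partners called lower, those with the largest changes act with ANXA2. Several other genes of this hand-made list also act with ANXA2, among them S100A10, which was not called. PLAT, the tissue plasminogen activator that binds ANXA2 at the cell surface, had 184, 126 and 115 reads with siNC and 57, 67 and 67 with siZEB1. It fell from 6.75 ± 1.66 to 3.33 ± 0.273 CPM (SD, n = 3), a log2FC of -1.02 (SE 0.18, adjusted p = 0.000217). AHNAK, a giant scaffold recruited by the ANXA2 and S100A10 complex, fell from 1221 ± 101 to 940.2 ± 72.4 CPM (log2FC -0.38, SE 0.066, adjusted p = 0.000198). SRC, the kinase that phosphorylates ANXA2, had a log2FC of -0.32 (adjusted p = 0.00254).

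The remaining partners are named with their values known. PRKCA, the protein kinase C alpha gene, fell by 0.28 on the log2 scale and S100A4 by 0.24 (adjusted p = 0.0109 and 0.00972). Without siNC replicate 2 the PRKCA call was lost (-0.26, adjusted p = 0.0526 from edgeR) and 6 partners were called lower, beside 17.19% of all tested genes. RASA1, which ANXA6 brings to membranes, had a log2FC of -0.07 (adjusted p = 0.611), and DYSF, encoding dysferlin, one of -0.40 (adjusted p = 0.254) at 21 to 74 reads per culture. PLA2G4A, the phospholipase that ANXA1 inhibits, had 0 to 4 reads per culture and was not tested. FPR1, FPR2 and FPR3, the formyl peptide receptors that take ANXA1 as a ligand, had no row, nor did PLG.

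Annexins seal plasma membrane wounds together with calpains, ESCRT proteins, caveolar proteins and dysferlin-type proteins, and 22 genes of this process (other than the annexins and DYSF) were taken as a list. Of the 21 tested, 11 were called higher (19.0% of all tested genes), 3 lower (21.2%) and 7 neither. The median log2FC was 0.22, against -0.005 for all tested genes. The count of 11 was sensitive to single cultures, since 7 were called higher without siNC replicate 2 and 6 without siZEB1 replicate 1, where 15.02% and 15.11% of all tested genes were.

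The ESCRT-III subunits, which pinch off damaged membrane, made up 6 of the 11 genes called higher, and 7 of them were tested (19.0% of all tested genes were called higher). CHMP2A, at a log2FC of 0.07 (adjusted p = 0.544), was the one not called. The calls of CHMP1A, CHMP4A and CHMP4B were lost without siZEB1 replicate 1 (adjusted p = 0.0873, 0.0695 and 0.0522 from edgeR). They were also lost with the replicate number added to the fit as a block (adjusted p = 0.0679, 0.0535 and 0.0523 from edgeR). That of CHMP1A was lost too without siNC replicate 2 (0.065) or siZEB1 replicate 2 (0.0531). The calls of CHMP2B, CHMP3 and CHMP4C were kept in each fit. CHMP4C had 211, 212 and 205 reads with siNC and 389, 386 and 363 with siZEB1, and rose from 10.01 ± 0.588 to 19.9 ± 0.836 CPM (SD, n = 3), a log2FC of 0.99 (SE 0.095, adjusted p = 3.31e-07). CHMP2B had 935, 848 and 764 reads with siNC and 1293, 1327 and 1396 with siZEB1, with a log2FC of 0.79 (SE 0.074, adjusted p = 2.44e-07). For both genes every siZEB1 culture lay above every siNC culture. CHMP4A was called at 0.91 (SE 0.32, adjusted p = 0.0322) on 11 to 28 reads per culture, with 68.8% of its exonic bases shared with other genes on the same strand. DESeq2 did not call it (adjusted p = 0.0808). In edgeR its call was also lost without siNC replicate 1 (adjusted p = 0.113), siNC replicate 2 (0.0867) or siZEB1 replicate 3 (0.133). The exons of CHMP4C overlap an opposite-strand gene, ZFAND1, over 13.4% of their bases.

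Of the caveolar proteins, CAV1 had 113, 124 and 95 reads with siNC and 168, 169 and 194 with siZEB1, and rose by 0.82 on the log2 scale (SE 0.12, adjusted p = 5.41e-05). EHD2, which restrains caveolae at the membrane, had 131, 138 and 106 reads with siNC and 59, 78 and 46 with siZEB1, and its log2FC was -0.90 (SE 0.17, adjusted p = 0.000551). CAV1 and EHD2 thus moved in opposite directions. Among genes named with their values known, CAVIN1 rose by 0.52, CHMP3 by 0.53 and TSG101 by 0.39, while MYOF, encoding the dysferlin relative myoferlin, fell by 0.43 and CAPN2, a calpain protease subunit, by 0.20 on the log2 scale. The CAPN2 call was lost without siNC replicate 2 (-0.18, adjusted p = 0.0518 from edgeR). TRIM72 had between 0 and 7 reads per culture and was not tested.

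**Figure D5:**
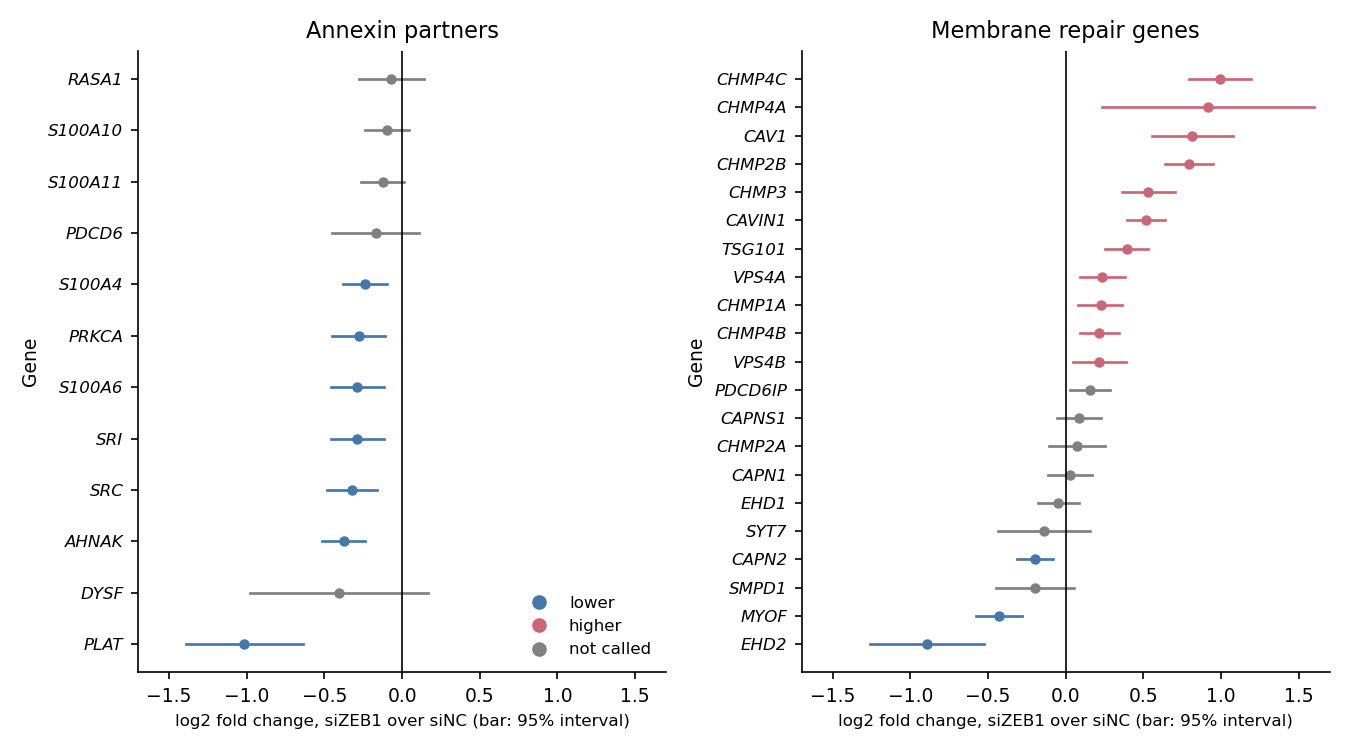
Log2 fold change, siZEB1 over siNC (x axes), with 95% intervals as bars, for the 12 tested annexin partners (left) and the 21 tested membrane repair genes (right), colored by the call. All 12 partner values lie below 0, from -1.02 for PLAT to -0.07 for RASA1, whereas the repair genes run from -0.90 for EHD2 to 0.99 for CHMP4C.

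For ANXA7, the genes with the most similar profile over the 6 cultures were SARAF, FAM83F and HMGB2, with Pearson correlations of log2 CPM of 0.9998, 0.9997 and 0.9996. Their own log2FCs were 0.35, 0.94 and 0.91. Such similarity was common, as 1121 tested genes had a correlation with ANXA7 above 0.95, and the 6 points share 2 groups and the same libraries, so the correlations mainly carry the difference between the groups.

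Beside the E-box matches of the family, the tested genes as a whole were tallied by the number of matches in the window that held the most. Of 7897 genes without a match 19.7% were called higher, of 2151 with 1 match 21.5% and of 381 with 2 or more 33.1%, with median log2FCs of -0.009, -0.008 and 0.105. ANXA7 and ANXA3 belong to the last of these groups, at 0.92 and 0.46, and ANXA4, ANXA6 and ANXA11 to the middle one, at 0.29, 0.35 and -0.14. ANXA1 rose by 0.32 with no match in its window. These tallies describe the windows and were not tested.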

How the data were processed

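RNA from 3 siNC and 3 siZEB1 cultures of SW480 was sequenced, and the authors deposited whole-number read counts per Ensembl gene and culture, without normalization. The submitters' processing notes name Trimmomatic, HISAT2, SAMtools, featureCounts and hg38. The versions, the annotation and the strand setting are not given in the sources used here. Each listed gene had at least 1 count over the 6 cultures.

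Genes kept by edgeR's filterByExpr (14996) were normalized by TMM and siZEB1 was compared with siNC by the quasi-likelihood test, two-sided and without covariates, with Benjamini-Hochberg adjustment over all genes tested (R 4.3.3, edgeR 4.0.16, limma 3.58.1). The biological coefficient of variation was 6.58%. SE is the log2 fold change over the square root of the F statistic. DESeq2 1.42.0 (Wald test), median-of-ratios factors, total library size, other filters, a replicate block, each culture left out and the study's fold limit of 1.5 were tried as alternatives. The fit was tested on simulated data with 200 changed genes. It recovered 65.4% of 1.5-fold and 91.7% of 2-fold changes, and 5.71% of its calls were false. Far more genes were called in the real data (2849 higher and 3186 lower), so these rates need not hold there. Changes smaller than 1.5-fold were not simulated. The chi-square over degrees of freedom between same-group cultures was 2.18 to 8.58, above the value near 1 of a single library sequenced again.

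Named genes were the members and other annexin loci, ZEB1, the 5 called genes of each list with the largest change, S100A10, S100A11, S100A6, SRI, PDCD6, FPR1 and FPR2, and the 3 genes most like ANXA7. Others are said to have been named with their values known, and the marker genes were added from lists. Members and lists were chosen with earlier results of these data known. Coordinates, exon lengths and codons are from GENCODE 29 on GRCh38, matched by identifier, and promoters are from RefSeq, matched by symbol.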

Additional observations from a re-analysis of the deposited data

How the results depend on the processing

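Over 14 ways of fitting the counts, ANXA7 (0.89 to 0.94), ANXA3 (0.43 to 0.48), ANXA6 (0.33 to 0.38) and ANXA1 (0.29 to 0.36) passed the test each time on the log2 scale. ANXA4 passed in 13 and, with single cultures left out, ran from 0.233 to 0.352, the lowest without siZEB1 replicate 2. With total library size only, ANXA2 (-0.121, adjusted p = 0.0469 from edgeR) and ANXA5 (-0.14, adjusted p = 0.0403 from edgeR) passed and 2 members were called lower (21.6% of all tested genes), while the median of all genes moved from -0.005 to -0.014. ANXA11 (-0.163 to -0.094) passed in 0. ANXA9 ran from -0.202 to 0.017 with single cultures left out and turned positive without siNC replicate 3 (0.017) or siZEB1 replicate 2 (0.008), as did RASA1 (0.006 without siNC replicate 2, lowest -0.186) and EHD1 (0.001 without siNC replicate 3, lowest -0.09). CAPN1 (-0.014 without siZEB1 replicate 2, highest 0.075) and CHMP2A (-0.002 without siZEB1 replicate 1, highest 0.166) turned negative. None of these was called. The cause was not tested.

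Under the study's fold limit of 1.5, 1 member was higher at both p limits, 1 partner was lower at both (9.35% and 6.70% of all tested genes), and 4 and 3 repair genes were higher (7.21% and 4.52%) and 1 was lower. With single cultures left out, the partner median ran from -0.306 to -0.241 and the repair median from 0.162 to 0.198. Repair genes called higher ran from 6 to 11, where between 15.02% and 19.06% of all tested genes were. The longest transcript length kept 5 members at their place. Deviations of same-numbered cultures correlated at -0.326, -0.333 and -0.651, no culture correlated best with its own number, and the numbers were not taken to pair the cultures. With the replicate block 5 members were called higher, 7 partners lower and 6 repair genes higher, where 15.3% of all tested genes were called higher and 17.9% lower. CAPN2 lost its call there (-0.195, adjusted p = 0.0594 from edgeR), and so did CHMP1A, CHMP4A and CHMP4B. Depth limits what can be said of ANXA9, at 102 to 149 reads per culture, and of ANXA2R, at 8 to 26.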
